A study of Homo sapiens with 3 samples.

Results

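The 38 redox genes described here encode the enzymes that make, use and recycle glutathione, the thioredoxin and peroxiredoxin system, the superoxide dismutases and catalase, and the transcription factor NRF2 with its main regulators. They were chosen by gene symbol, with earlier results of these data known. All 38 were found by Ensembl identifier among the 62754 genes of the deposited table. MCF10A cells are human breast epithelial cells that grow without limit but do not form tumours. Their RNA was taken 27 h after seeding in 3 replicates. By the labels, the cells carried the empty vector of the Retro-X Tet-One inducible system, were selected with puromycin, held no inserted gene and received no doxycycline or other treatment. The vector is not mentioned in the paper. All 3 replicates are of 1 condition and 1 batch, so no group could be compared with another, and nothing in the labels says that they came from separate cultures.

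Glutathione is a small thiol that reduces peroxides through the glutathione peroxidases, is attached to reactive compounds by the glutathione transferases, and is regenerated by glutathione reductase. Thioredoxin is a small protein that reduces disulfides in other proteins, among them the peroxiredoxins, and is itself reduced by thioredoxin reductase. NRF2 is held by KEAP1 in the cytosol and marked for breakdown; when KEAP1 is modified by oxidants or electrophiles, NRF2 accumulates and activates genes that hold an antioxidant response element.

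Levels are in TPM, reads per base of transcript scaled so that every replicate sums to 1000000. Reads recovered from TPM and gene length came to 15273329, 15446347 and 11166546 in replicates 1, 2 and 3. A gene was called expressed at a mean of at least 1 TPM. By this call all 8 markers of breast basal epithelium were expressed, led by KRT5 at 6612 ± 890 TPM (SD, n = 3) and KRT14 at 4144 ± 618 TPM. Of 4 luminal hormone-sensing markers, 2 were expressed, GATA3 at 12.8 TPM and FOXA1 at 1.11 TPM, while ESR1 and PGR were at 0.0345 and 0.00485 TPM. Of 4 fibroblast markers, DCN at 9.05 TPM and COL1A1 at 4.96 TPM were expressed, and COL1A2 had 0 reads. PECAM1, at 1.77 TPM, was expressed among 3 endothelial markers, and 0 of 3 leukocyte markers were.

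Of the 38 redox genes, 32 (84.2%) were expressed, against 56.7% of all protein-coding genes and 24.9% of all genes in the table. Each of the 32 was at or above 1 TPM in every replicate, and 0 of the 38 were called differently between replicates, against 2.84% of protein-coding genes. The levels were high. The median of the 32 expressed redox genes was 104.7 TPM, against 24.9 TPM for the 11360 expressed protein-coding genes, and 29 of the 32 lay above the latter. Since the 38 were chosen with earlier results of these data known, the expressed share and the median depend on that choice. There were 3 genes at or above 1000 TPM (PRDX1, GSTP1 and TXN), 16 at or above 100 TPM with these included, 13 from 10 to below 100 TPM, and 3 from 1 to below 10 TPM (GLRX, GPX1 and HMOX1). The 6 genes under 1 TPM were GPX2, SRXN1, GPX3, GSTM3, SOD3 and GPX7. If all reads came from bases not shared with another gene, 33 of the 38 would be expressed, with SRXN1 among them, as described below. Together the 38 genes took 0.864, 0.833 and 0.769% of all TPM in replicates 1, 2 and 3, a mean of 0.822% ± 0.0487 (SD, n = 3), and PRDX1, GSTP1 and TXN held 46.5% of that sum.

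**Figure D1:**
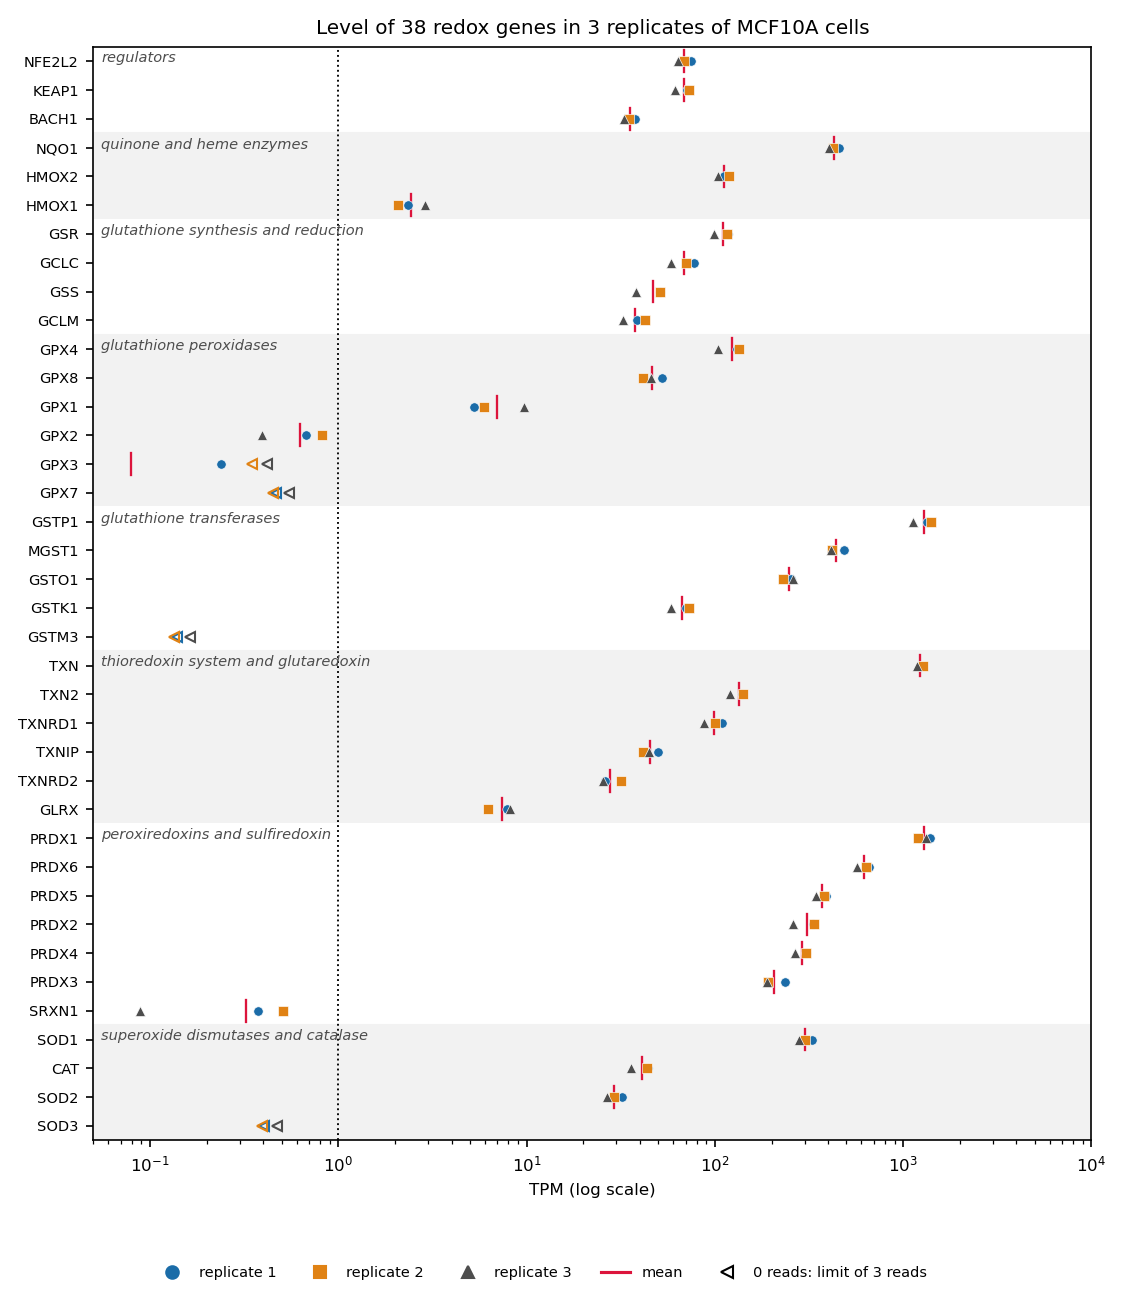
TPM on a log axis for each of the 38 genes, grouped by role, with a point per replicate and a red bar at the mean. The dotted line marks 1 TPM, and open triangles mark the level that 3 reads would give where a replicate had 0 reads. PRDX1, GSTP1 and TXN lie above 1000 TPM, and 6 genes have means under 1 TPM.

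The regulators were measured first. NFE2L2 (ENSG00000116044, chr2:177218667-177392756 on hg38), which encodes NRF2, was at 74.8, 68.5 and 63.6 TPM in replicates 1, 2 and 3. KEAP1 (ENSG00000079999, chr19:10486125-10503558), the adaptor that presents NRF2 for ubiquitination, was at 70.8, 72.9 and 61.2 TPM. The 2 sets of values overlapped, and NFE2L2 was the higher in replicates 1 and 3 only. The log2 ratio of NFE2L2 over KEAP1, taken on TPM + 1 within each replicate, was 0.02 ± 0.09 (SD, n = 3; exact permutation test over sign flips, two-sided, p = 1). This near equality rests on the gene length used. TPM in the table divides by the longest transcript, 5101 bases for NFE2L2, while its canonical transcript has 2446 bases, and with canonical lengths for all genes the log2 ratio was 1.02 ± 0.09. BACH1, a repressor that competes with NRF2 for the same DNA element, was at 37.5, 35.2 and 33.0 TPM, below NFE2L2 in every replicate. The log2 ratio of NFE2L2 over BACH1 was 0.95 ± 0.03, and 1.96 ± 0.03 with canonical lengths.

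The same exact test was run on 18 pairs of genes. With 3 replicates it cannot go below p = 0.25, which 17 of the 18 pairs had (adjusted p = 0.265, exact permutation test with Benjamini-Hochberg adjustment), so the design allows no call and the values below are given with their spread alone.

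The DNA element bound by NRF2 with small MAF proteins has the core TGACNNNGC. In RefSeq promoters on GRCh38.p14, from 250 bases before to 50 bases after the start of a gene, this core was searched on both strands. Of the 31 redox genes with a promoter in that table, 7 (22.6%) held it, against 16.1% of 27305 genes with a promoter there. The 7 were GSTP1, MGST1, GSTO1, TXNRD1, KEAP1, GCLM and GPX2. GSR, GSS, PRDX6, SOD1, TXN2, HMOX1 and PRDX1 were not in the promoter table. Below is 1 match per gene, the nearest to the start among those whose printed stretch ends before it, since they show the letters behind the count. Further matches upstream, not printed, began 54 bases before the start of KEAP1, 8 and 102 bases before the starts of TXNRD1 and 226 bases before that of GSTO1, and the match of MGST1 began 30 bases after its start. Each is written 5′ to 3′ on the strand of the gene, with the match in capitals. Where the capitals begin with GC, the core is on the opposite strand. Starts are those of the RefSeq promoters and can differ from the ends of the gene spans of GENCODE used elsewhere here. The printed matches of GSTP1, KEAP1 and GSTO1 lie inside those spans.
GSTP1, chr11:67583726-67583774, match beginning 66 bases before the start: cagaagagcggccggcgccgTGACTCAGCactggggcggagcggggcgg
GCLM, chr1:93909436-93909484, match beginning 34 bases before the start: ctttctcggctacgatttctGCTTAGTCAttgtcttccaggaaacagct
KEAP1, chr19:10502774-10502822, match beginning 31 bases before the start: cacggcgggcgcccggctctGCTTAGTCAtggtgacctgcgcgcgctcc
TXNRD1, chr12:104215660-104215708, match beginning 99 bases before the start: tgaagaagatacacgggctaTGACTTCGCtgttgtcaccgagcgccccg
GSTO1, chr10:104254711-104254759, match beginning 161 bases before the start: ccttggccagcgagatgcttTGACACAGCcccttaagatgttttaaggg
GPX2, chr14:64942839-64942887, match beginning 122 bases before the start: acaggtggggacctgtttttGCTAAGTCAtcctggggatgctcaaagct

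The GSTP1 match reads TGACTCAGC, a form found in the promoters of 0.689% of all genes and in no other redox gene of the 31. The 7 genes with the core ranged from GSTP1, at 1290 TPM, to GPX2, under 1 TPM, with a median of 99.0 TPM, against 45.9 TPM for the 24 without it. Those 24 ranged from 0 reads (GSTM3, SOD3 and GPX7) to TXN, at 1235 TPM, so the groups overlapped. The difference in medians was not tested. These matches are a description of the letters in the window and were not measured as binding.

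Among enzymes whose genes NRF2 is known to activate, NQO1 and HMOX1 stood far apart. NQO1, a quinone reductase, was at 458, 426 and 403 TPM. HMOX1, the inducible heme oxygenase, was at 2.35, 2.07 and 2.90 TPM, from 21, 19 and 22 reads. HMOX2, the constitutive heme oxygenase, was at 112, 119 and 104 TPM. The lowest HMOX2 value was thus above every HMOX1 value, and the ratio of HMOX1 to HMOX2 was 0.0221 ± 0.00532 (SD, n = 3).

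All 4 genes of glutathione synthesis and reduction were expressed. GCLC, the catalytic subunit of the rate-limiting glutamate-cysteine ligase, was at 77.2, 70.3 and 58.8 TPM. GCLM, its modifier subunit, was at 38.6, 42.4 and 32.5 TPM. GCLC was higher in every replicate, by a ratio of 1.82 ± 0.172. GSS, glutathione synthetase, which adds the glycine, was at 50.9, 51.0 and 38.2 TPM, and GSR, glutathione reductase, was at 117, 116 and 98.8 TPM. The groups of values did not overlap, but the gap depends on length. The log2 ratio of GSS over GSR was -1.23 ± 0.10, and -0.58 ± 0.10 with canonical lengths, since the longest GSS transcript is 1.58 times its canonical transcript. In all 4 genes replicate 3 was the lowest, as it was in 78.5% of expressed protein-coding genes.

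The glutathione peroxidases reduce hydrogen peroxide or lipid hydroperoxides with glutathione. Of the 6 genes, 3 were expressed. GPX4, which acts on lipid hydroperoxides in membranes, was at 131, 134 and 104 TPM. GPX8, a membrane protein of the endoplasmic reticulum, was at 52.2, 41.6 and 46.0 TPM. GPX7, which also acts in the endoplasmic reticulum, had 0 reads in every replicate. A count of 0 allows up to 3 reads, or 0.464, 0.452 and 0.546 TPM for GPX7, which puts GPX8 at least 84.3-fold higher in each replicate. GPX3, the secreted plasma form, had 2, 0 and 0 reads. GPX2, known from gut epithelium, was at 0.671, 0.816 and 0.394 TPM, from 4, 5 and 2 reads.

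GPX1 (ENSG00000233276, chr3:49357174-49358605), the major cytosolic glutathione peroxidase, was listed at 5.29, 5.95 and 9.71 TPM, from 32, 37 and 50 reads. This was under GPX4 in every replicate, with a log2 ratio of GPX1 over GPX4 of -3.98 ± 0.60, and under CAT, with a log2 ratio of CAT over GPX1 of 2.44 ± 0.57. The level of GPX1 is uncertain. Of its canonical transcript, 572 bases (63.6%) are also annotated, on the same strand, as exons of another protein-coding gene, ENSG00000290318, itself at 0, 8 and 1 reads. If all GPX1 reads came from the 327 bases that are not shared, its level would be 20.1 TPM. All 342 protein-coding genes with every exon shared on the same strand had 0 reads, against 24.9% of other protein-coding genes. How reads in shared bases were counted was not tested, here or for SRXN1 below. In addition, 52.1% of the 32-base words of the GPX1 transcript occur elsewhere in the genome, and 37.2% occur in its pseudogene GPX1P1 on chromosome X. GPX1P1 was listed at 16.3, 11.3 and 9.95 TPM, above GPX1 in every replicate. The reads of GPX1P1, 52, 37 and 27, were fewest in the replicate where those of GPX1 were most, and both loci together had 84, 74 and 77 reads. How reads that match both loci were assigned is not given in the sources used here.

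**Figure D2:**
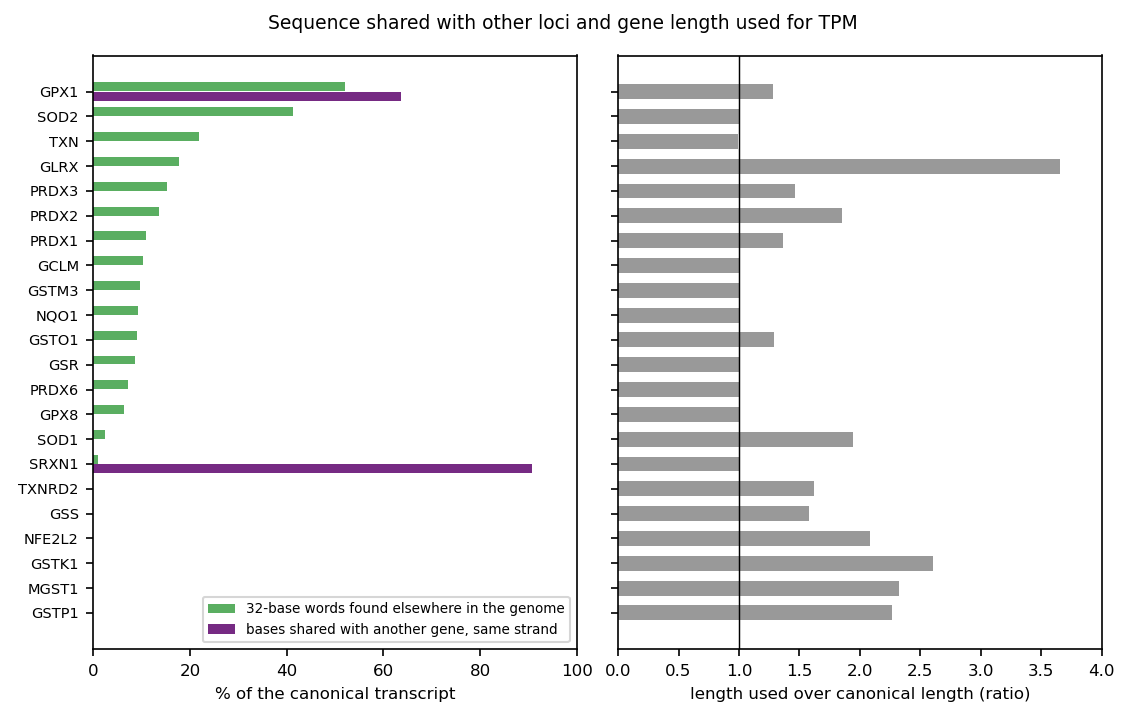
Left, the percent of the canonical transcript made of 32-base words found elsewhere in the genome (green) and of bases shared with exons of another gene on the same strand (purple). Right, the length used for TPM over the canonical length. Shown are the genes with shared bases, over 5% of words elsewhere or a length ratio above 1.5; GPX1 and SRXN1 are the 2 genes with same-strand sharing, and GLRX has the largest length ratio, 3.65.

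The glutathione transferases join glutathione to electrophiles. GSTP1, the pi-class enzyme (ENSG00000084207, chr11:67583742-67586656), was at 1331, 1405 and 1133 TPM. MGST1, a microsomal membrane enzyme, was at 486, 420 and 412 TPM. GSTO1, of the omega class, was at 254, 230 and 259 TPM, with replicate 3 the highest. GSTK1, of mitochondria and peroxisomes, was at 70.0, 73.2 and 58.7 TPM. GSTM3, of the mu class, had 0 reads in every replicate, which allows 0.138, 0.135 and 0.163 TPM, and GSTP1 was at least 6968-fold higher in each replicate. The 5 transferases summed to 2044 ± 157 TPM (SD, n = 3), or 24.9% of the sum of the 38 genes.

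Thioredoxin itself was among the 3 highest redox genes. TXN, the cytosolic form, was at 1238, 1278 and 1191 TPM. TXN2, the mitochondrial form, was at 139, 142 and 120 TPM, lower in every replicate, and the ratio of TXN to TXN2 was 9.28 ± 0.556. The reductases followed the same order. TXNRD1, cytosolic, was at 109, 99.8 and 87.9 TPM, and TXNRD2, mitochondrial, was at 26.2, 31.6 and 25.5 TPM. Their ratio was 3.59 ± 0.528, and the log2 ratio fell from 1.80 ± 0.20 to 1.16 ± 0.20 with canonical lengths. TXNIP, which binds thioredoxin and inhibits it, was at 49.8, 41.4 and 44.6 TPM, 27.5 ± 3.11-fold under TXN. GLRX, a glutaredoxin that uses glutathione in place of thioredoxin reductase, was at 7.86, 6.23 and 8.12 TPM. GLRX has the largest ratio of the length used to the canonical length, 3.65, from 3405 against 932 bases. The log2 ratio of TXN over GLRX was 7.21 ± 0.23, and 5.45 ± 0.24 with canonical lengths, so TXN was the higher either way.

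The peroxiredoxins, which reduce peroxides and are recycled by thioredoxin or glutathione, held 37.7% of the sum of the 38 genes, at 3096 ± 181 TPM (SD, n = 3). All 6 peroxiredoxins were expressed above 100 TPM. PRDX1 (ENSG00000117450, chr1:45510914-45542732), cytosolic, was at 1383, 1194 and 1318 TPM. PRDX6, which is recycled with glutathione, was at 657, 634 and 570 TPM. PRDX5, found in mitochondria and peroxisomes, was at 388, 380 and 343 TPM, and PRDX2, cytosolic, was at 332, 337 and 261 TPM. PRDX4, of the endoplasmic reticulum, was at 304, 304 and 267 TPM, and PRDX3, of mitochondria, was at 235, 192 and 190 TPM. PRDX1 exceeded PRDX2 in every replicate by a log2 ratio of 2.07 ± 0.26 (1.63 ± 0.26 with canonical lengths). PRDX3 was under PRDX5 in every replicate by a log2 ratio of -0.85 ± 0.13, which shrank to -0.29 ± 0.13 with canonical lengths.

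SRXN1 (ENSG00000271303, chr20:646615-653200) encodes sulfiredoxin, which restores over-oxidized peroxiredoxins. It was listed at 0.376, 0.512 and 0.0883 TPM, from 5, 7 and 1 reads. Of its canonical transcript, 2292 bases (90.7%) are also annotated on the same strand as exons of ENSG00000270299, which had 0 reads. If all its reads came from the 236 unshared bases, SRXN1 would be at 2.83 TPM, above the cutoff. Its reading under 1 TPM was therefore not taken as a lack of expression.

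Of the superoxide dismutases, which turn superoxide into hydrogen peroxide, 2 of 3 were expressed. SOD1, the cytosolic copper-zinc enzyme, was at 328, 301 and 280 TPM. SOD2, the manganese enzyme of mitochondria, was at 31.9, 29.0 and 26.9 TPM. The ratio of SOD1 to SOD2 was 10.4 ± 0.0755 and varied less between replicates than either gene. This ratio in TPM does not hold in reads, of which SOD1 had 3011, 2835 and 2188 and SOD2 2384, 2222 and 1708. The length used for SOD2 is 14162 bases, while the median of its coding transcripts is 917 bases and that of SOD1 is 880 bases. With canonical lengths the log2 ratio of SOD1 over SOD2 was 4.28 ± 0.01, against 3.33 ± 0.01 in TPM as deposited. This does not correct for the length of SOD2, whose canonical transcript has 14167 bases. Only the length of SOD1 changed much, from 1741 to 895 bases. A ratio with the median coding lengths was not computed. SOD3, the secreted form, had 0 reads, which allows 0.403, 0.392 and 0.473 TPM and puts SOD2 at least 56.8-fold higher in each replicate. CAT, catalase of peroxisomes, was at 44.1, 43.7 and 35.8 TPM.

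**Figure D3:**
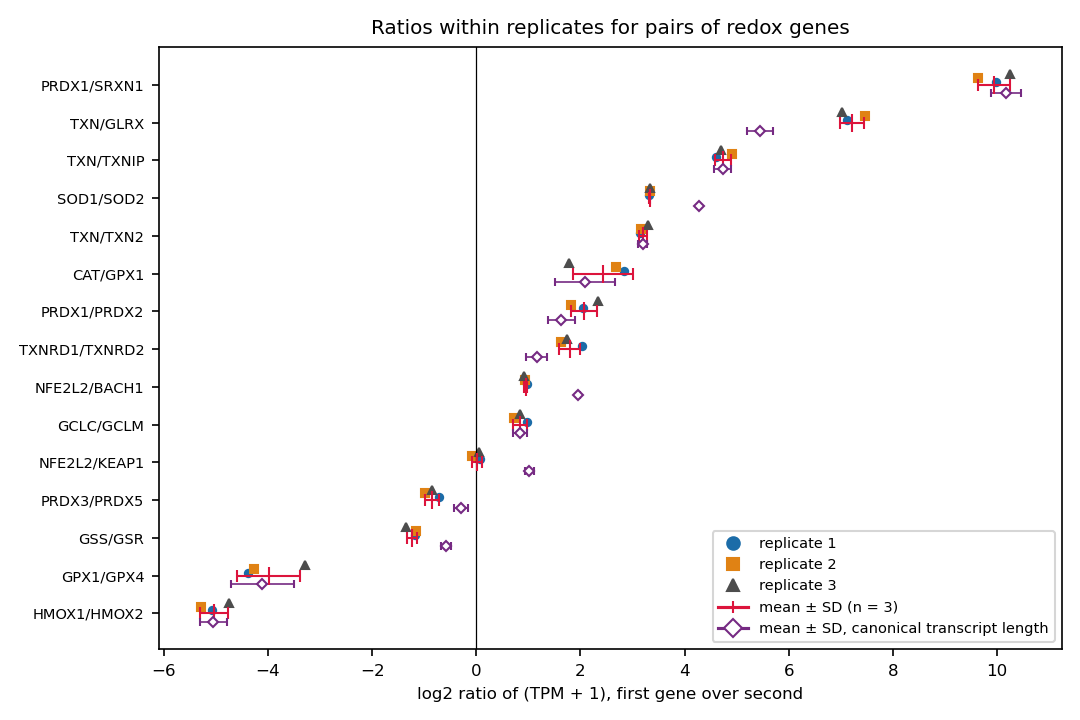
Log2 ratio of (TPM + 1) for 15 pairs of genes with reads in both, with a point per replicate, the mean ± SD in red and the mean ± SD with canonical transcript lengths in purple. The line at 0 marks equal levels; NFE2L2/KEAP1 lies at 0.02 with the deposited values and at 1.02 with canonical lengths, and the other pairs keep their sign.

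When the 35 redox genes with reads were ordered by mean TPM, 34 neighbouring pairs could be compared. Of these, 19 kept their order in every replicate, and 16 of the 19 also differed by more than the larger SD of the pair. This order rests on the gene length used. With canonical lengths PRDX6 was under MGST1 (506 against 836 TPM) and PRDX5 under PRDX2 (301 against 469 TPM). PRDX4 was then under GSTO1 (237 against 261 TPM) and TXNRD1 under NFE2L2 (83.1 against 118 TPM). The others of the 16 kept their order by mean. On the deposited values PRDX1, GSTP1 and TXN could not be ordered among themselves, nor could MGST1 and NQO1, or PRDX2, SOD1 and PRDX4. NFE2L2, GCLC, KEAP1 and GSTK1 lay between 67.3 and 69.0 TPM and were likewise not separated by the spread. These ties also depend on length. With canonical lengths GSTP1 (mean 2389 TPM) was above PRDX1 (1451 TPM), and PRDX1 above TXN (1005 TPM), in every replicate. MGST1 was then at 836 TPM against 351 TPM for NQO1. GSTK1 and NFE2L2 were at 143 and 118 TPM, against 56.0 and 57.6 TPM for GCLC and KEAP1. Among the 16 pairs apart by more than the larger SD on the deposited values was the step from TXN to PRDX6. It was a difference of 615 TPM against an SD of 44.9 TPM. That from TXNRD2 to GLRX, also among the 16, was a difference of 20.4 TPM against an SD of 3.37 TPM.

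The spread between replicates was small. The SD of log2(TPM + 1) had a median of 0.13 over the 32 expressed redox genes, against 0.16 over expressed protein-coding genes and 0.19 over all expressed genes, and ran from 0.05 for TXN to 0.41 for GPX1 on the deposited values. Replicate 3, the one with the fewest reads, was the lowest for 25 of the 32 (78.1%), which is near the background of 78.5% of expressed protein-coding genes and 69.5% of all expressed genes. GSTO1, GLRX, GPX1 and HMOX1 were highest in replicate 3. The log2 ratio of replicate 3 over the mean of the others had a median of -0.17 for the redox genes and -0.23 for protein-coding genes, and ran from -0.41 for GSS to 0.69 for GPX1. After TPM was rescaled so that nuclear protein-coding genes sum to 1000000 in each replicate, by factors of 1.17, 1.19 and 1.36, replicate 3 was the lowest for 9 of the 32 redox genes (28.1%), against 42.6% of expressed protein-coding genes, and replicate 2 for 16. On that scale the medians were 0.03 and -0.03, and the ends were -0.21 for GSS and 0.90 for GPX1. The SD then ran from 0.01 for PRDX4 to 0.53 for GPX1, and TXN, at 0.08, was no longer the lowest, with 16 redox genes below it.

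**Figure D4:**
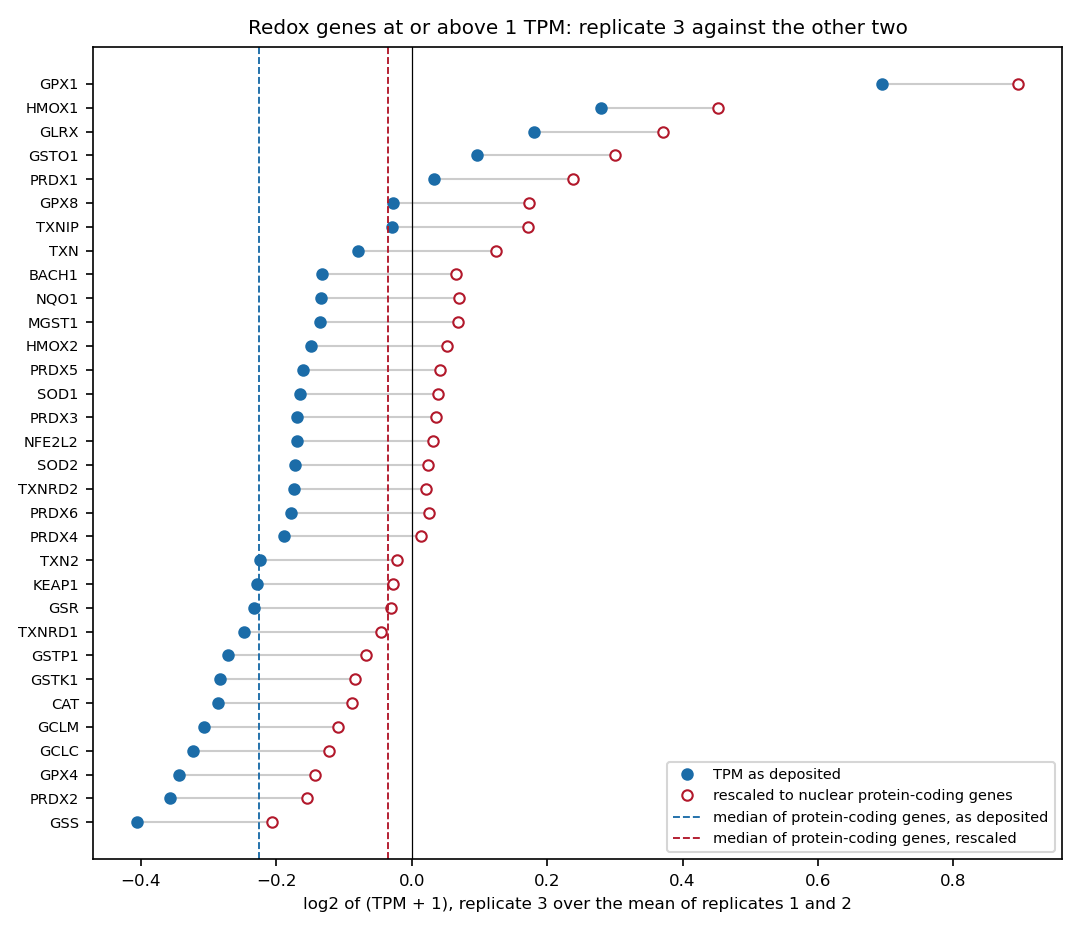
Log2 of (TPM + 1) in replicate 3 over the mean of replicates 1 and 2 for the 32 expressed redox genes, with deposited values (filled) and after rescaling to nuclear protein-coding genes (open). Dashed lines give the medians of expressed protein-coding genes, -0.23 and -0.03; GPX1 lies at the top on both scales and GSS at the bottom.

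Reads differed between replicates from those of equal TPM for 30 of the 32 expressed redox genes (chi-square test with Benjamini-Hochberg adjustment over 15802 genes, threshold 0.05), against 54.3% of all genes tested and 65.3% of expressed protein-coding genes. This test compares the libraries, not conditions. It sets their differences against counting error alone, treats each read as an independent molecule, and calls small differences in genes with many reads. GLRX (adjusted p = 0.130, chi-square test) and HMOX1 (adjusted p = 0.623, chi-square test) were not called on the deposited values. On the nuclear protein-coding scale 17 redox genes were called, against 32.4% of all genes tested. Of the 17, 16 were among the 30, and GLRX was called on this scale alone (adjusted p = 0.0301, chi-square test). Without replicate 3 there were 13 called, all among the 30, against 21.3% of all genes tested. GPX1 was called on both scales, with an adjusted p of 0.0223 in the chi-square test on deposited values and 0.00391 after rescaling.

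Related genes outside the 38 were taken from lists. Like the 38, these lists were chosen with earlier results of these data known, so the medians depend on how genes were divided among them. Of 26 other enzymes of glutathione metabolism, 17 were expressed, with a median of 5.96 TPM over the list, against 68.5 TPM over the 38 redox genes. The highest were GLO1, glyoxalase, at 269 ± 22.8 TPM (SD, n = 3), MGST2 at 48.2 ± 1.41 TPM and GGCT, which breaks down gamma-glutamyl peptides, at 44.6 ± 2.36 TPM. GPX5, GPX6, GSTA1, GSTM1, GSTM5 and GSTT2 had 0 reads. The related gene GSTT2B was at 13.6, 16.6 and 14.2 TPM in replicates 1, 2 and 3. How reads that would match both GSTT2 and GSTT2B were assigned is not given, so the 0 of GSTT2 does not show absence. All of the 17 other thioredoxin-fold and repair enzymes were expressed, led by PARK7 at 474 ± 24.1 TPM, GLRX3 at 101 ± 5.81 TPM and NXN, nucleoredoxin, at 67.9 ± 7.40 TPM. The lowest were SESN3 at 5.79 TPM, TXNDC12 at 9.83 TPM, with 80.6% of its transcript shared on the same strand, and MSRB2 at 13.98 TPM.

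Of 15 partners and regulators of NRF2, 14 were expressed. SQSTM1, which binds KEAP1 and delivers it to autophagy, was at 297 ± 39.3 TPM (SD, n = 3), NFE2L1, a relative of NRF2, at 110 ± 13.8 TPM, and RBX1, of the ubiquitin ligase that KEAP1 works with, at 78.5 ± 4.35 TPM. NFE2L3 and BACH2 were at 2.04 and 1.26 TPM, and NFE2, a blood-cell relative, had 2 reads in all. Of 30 other textbook targets of NRF2, 29 were expressed and 22 lay above the median of expressed protein-coding genes. FTH1 and FTL, the ferritin chains, were at 4560 ± 405 and 1772 ± 200 TPM, and PGD, of the pentose phosphate pathway, at 394 ± 35.7 TPM. CES1 and AKR1B10 were at 2.57 and 2.37 TPM, and UGT1A6, with 60.2% of its transcript shared with neighbouring genes, was at 0.685 TPM. These lists were described by counts and medians alone, and their levels do not measure the activity of NRF2.

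**Figure D5:**
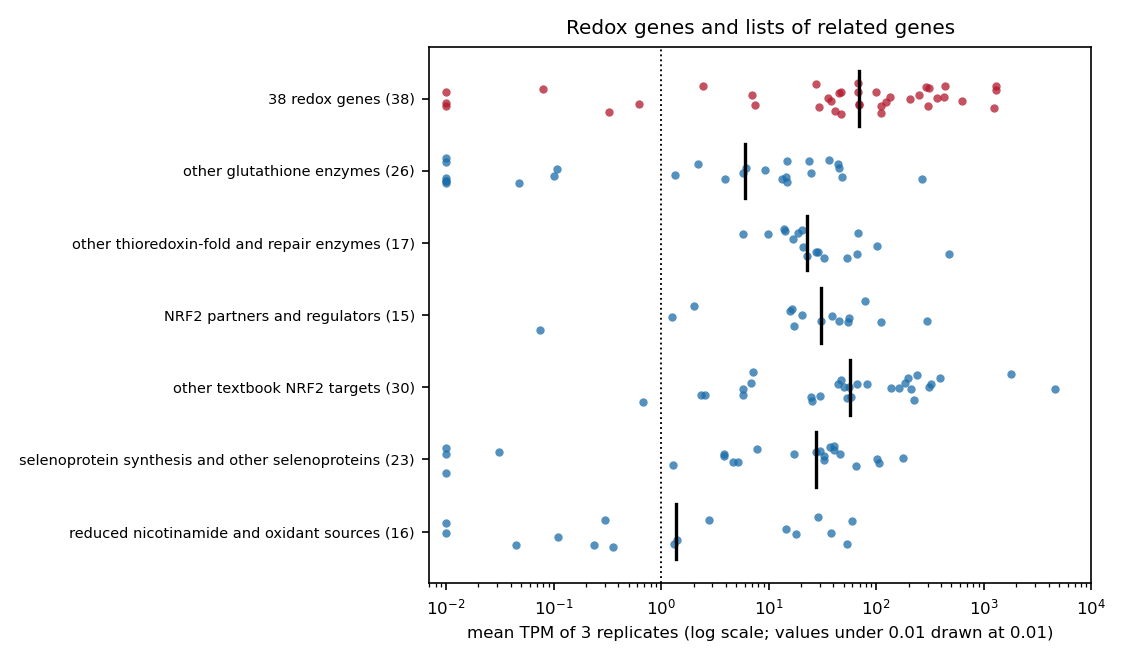
Mean TPM over 3 replicates on a log axis for the 38 redox genes (red) and 6 lists of related genes (blue), with a point per gene and a black bar at the median of each list. Genes under 0.01 TPM are drawn at 0.01. The median is 68.5 TPM for the redox genes and runs from 1.37 to 57.2 TPM over the other lists.

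Sequence shared with other loci also touches genes other than GPX1 and SRXN1. Over 10% of 32-base words occurred elsewhere for 8 redox genes, namely GPX1, SOD2 (41.3%), TXN (21.8%), GLRX (17.6%), PRDX3 (15.2%), PRDX2 (13.5%), PRDX1 (10.8%) and GCLM (10.3%), and 18 of the 38 had no such word. Each pseudogene of TXN, PRDX1 and PRDX3 had at most 1 read in all. The highest count among PRDX2 pseudogenes was in PRDX2P3, at 10, 19 and 4 reads, or 1.16% of the level of PRDX2. Exons of another gene overlapped 7 redox genes on the opposite strand, to the largest extent PRDX1, of which 38.5% lies opposite MMACHC. The use of strand in counting is not given in the sources used here, and MMACHC was at 14.5 TPM against 1298 TPM for PRDX1.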

How the data were processed

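Libraries were made by the authors from 300 ng of RNA per sample with depletion of ribosomal RNA and were sequenced on a NextSeq system. Per the submitters' processing notes and the paper, reads were handled with Seq2science, fastp, STAR and MultiQC on hg38 (GRCh38.p14); the counting tool, annotation release and use of strand are not given in the sources used here. The authors deposited TPM values of 62754 genes, which sum to 1000000 in each of the 3 replicates. Replicates were not pooled.

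No transformation was applied to the deposited TPM beyond those named here. Genes were matched to GENCODE release 44 by Ensembl identifier, which found 62700 of them. TPM multiplied by the length of the longest transcript (1 base less per exon) and divided by its smallest step gave whole numbers for 100% of annotated genes (tolerance 0.01), taken as reads. A count of 0 was given a limit of 3 reads, which covers counting error only. Log2 values used a pseudocount of 1. Base sharing was computed between annotated exons over the canonical transcript, and 32-base words were searched on both strands of the primary chromosomes. Pairs were compared by an exact permutation test, and reads of genes with at least 15 reads by a chi-square test, adjusted after Benjamini and Hochberg. No test of differential expression was possible. The permutation p-values measure only the spread between these samples, which may be technical, and the chi-square p-values cover counting error only.

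The 38 genes, the other lists, the pairs and the tests were chosen with earlier results of these data known. Named genes are the 38, the 3 highest and up to 3 lowest of each other list (where more than 3 had 0 reads, those are all named), the cell type markers, genes whose exons share bases with the 38 on the same strand, and, chosen after their values were seen, MMACHC, GPX1P1, PRDX2P3 and GSTT2B. Alternatives covered the cutoff, pseudocount, scale, summary of replicates, motif and leaving out each replicate. Canonical lengths and unshared bases were chosen after seeing the data. Read recovery and the chi-square test were checked on simulated data. Tools were Python 3.11.15, scipy 1.17.1, numpy 2.4.6, pandas 2.3.3 and, for figures, matplotlib 3.10.9.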

Additional observations from a re-analysis of the deposited data

How the results depend on the processing

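The results were computed under 170 alternatives over 31 results, of which 138 stayed within the spread between replicates or within 1.5 times the count, 30 moved and 2 reversed. No paired analysis was possible because the study holds 1 condition, with nothing to pair. With a cutoff of 0.5 TPM, 2 redox genes were called differently between replicates in place of 0. The redox genes took 1.02% of TPM on the nuclear protein-coding scale and 0.976% with canonical lengths. On the nuclear protein-coding scale the median SD was 0.0725, replicate 3 was the lowest for 9 genes (against 42.6% of expressed protein-coding genes), and the chi-square test called 17 (against 32.4% of all genes tested). Leaving out each replicate gave a median SD of 0.0808 (without replicate 3) to 0.157, 13 (without replicate 3) to 25 genes called (against 21.3 to 46.7% of all genes tested), and a log2 ratio of NFE2L2 over KEAP1 of -0.0165 (without replicate 1), -0.0046 (without replicate 3) and 0.0668 (without replicate 2), a reversal around equality.

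Canonical lengths, added after the data were seen, moved the log2 ratio to 1.02 for NFE2L2/KEAP1, 1.96 for NFE2L2/BACH1, -0.58 for GSS/GSR, -5.28 for GPX7/GPX8, 11.22 for GSTP1/GSTM3, 1.16 for TXNRD1/TXNRD2, 1.63 for PRDX1/PRDX2, -0.29 for PRDX3/PRDX5, 4.28 for SOD1/SOD2, 4.64 for SOD2/SOD3 and 5.45 for TXN/GLRX. For GPX7/GPX8, GSTP1/GSTM3 and SOD2/SOD3, in which a gene has 0 reads, the pseudocount of 1 also sets the value. A pseudocount of 0 gave -5.52 for HMOX1/HMOX2, 12.30 for PRDX1/SRXN1 and 3.37 for SOD1/SOD2, and no value for these 3 pairs. A pseudocount of 0.1 gave -5.47 for HMOX1/HMOX2, -8.86 for GPX7/GPX8, 13.65 for GSTP1/GSTM3, 11.74 for PRDX1/SRXN1, 3.37 for SOD1/SOD2 and 8.19 for SOD2/SOD3. The motif TGACTCAGC in place of TGACNNNGC was held by 1 promoter (against 0.689% of all genes) and TGANNNNGC by 20 of 31 (64.5%, against 47.1% of all genes).

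Depth limits the genes with few reads. GPX1, HMOX1, GPX2, SRXN1 and GPX3 rest on 50 reads or fewer in each replicate, and a reading of 0 in GPX7, GSTM3 and SOD3 limits their level and does not show absence.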

Other observations

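Of 23 genes of selenoprotein synthesis and other selenoproteins, 19 were expressed at a mean of at least 1 TPM, with a median of 27.2 TPM. The thioredoxin reductases and several glutathione peroxidases of the 38 redox genes carry selenocysteine and need this machinery. SELENOF, of the endoplasmic reticulum, was the highest, at 191, 159 and 180 TPM in replicates 1, 2 and 3. SEPHS1 was at 107 ± 15.8 TPM (SD, n = 3), and SEPHS2, the selenophosphate synthetase, was at 101 ± 6.11 TPM. SELENOV, DIO1 and DIO3 had 0 reads.

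Among 16 genes of reduced nicotinamide supply and oxidant production, 9 were expressed, with a median of 1.37 TPM. XDH, xanthine dehydrogenase, was at 61.4, 63.5 and 53.3 TPM, NADK, which makes NADP from NAD, at 54.95, 56.9 and 48.6 TPM, and NNT, the mitochondrial transhydrogenase, at 39.8, 39.8 and 34.2 TPM. The NADPH oxidases NOX1 and NOX3 had 0 reads, and NOX4 had 3 reads in all.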
